A study of Spodoptera frugiperda with 3 samples.

Results

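The Hsp70 family holds the chaperones that bind unfolded stretches of other proteins and release them in cycles of ATP hydrolysis. Its unigenes were followed in whole larvae of the fall armyworm, Spodoptera frugiperda, a crop pest moth, held at 4 °C (T4), at 25 °C as the control (T25) or at 40 °C (T40). A unigene is a transcript sequence put together from the reads themselves, and its name comes from its best hit in protein databases. A unigene was taken as a member when the name of its best NR protein hit was that of a heat shock cognate (Hsc70), an Hsp70 or an Hsp68, or of the glucose-regulated protein Grp78. Names of partner proteins, with the words binding protein, interacting or organizing, were left out. This took 6 of the 30327 unigenes in the 3 deposited tables, and 2 further unigenes were set aside as partner proteins. All 6 also carried the HSP70 domain of Pfam. The choice by name did not use it, but it is read from the same sequences and is no independent check. No unigene had a Grp78 name.

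The animals were wild type larvae from a commercial colony, given as the fourth instar in the labels and as the fifth at RNA extraction in the study's methods, and RNA was taken from the whole body. Larvae of T4 and T40 were exposed for 16 h, while the sources used here give no time for T25. Each temperature has 1 library from 5 pooled larvae, so replicate error is unknown and no test was made. Ratios are quotients of read counts divided by the effective library size, and each is given with a 95% exact interval that covers counting error only. A unigene was called higher or lower when its ratio passed 2-fold. Members of the family resemble each other in sequence, so the division of reads among close paralogs, which the counting estimates, is uncertain. Levels of different unigenes are compared as FPKM, the deposited value per transcript length and library size.

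Between 16678975 (T25) and 24403584 (T4) reads were in the tables per library. The 5 members with a value in every library took 0.165% of them in T4, 0.0238% in T25 and 0.507% in T40. They leave out the most abundant member, a heat shock cognate whose T40 value was not analysed here. With it, all 6 members took 0.623% of the reads in T4 and 1.45% in T25, so that T25 was then the higher of these libraries. Each table lists unigenes that the authors called in one comparison, so high shares of all listed unigenes differ by construction. The whole-body label could not be checked by the presence of tissue markers, since a unigene had to have reads to be listed. The levels of such markers differed between libraries. The sum of 15 fat body unigenes, such as storage proteins, was 2.21-fold higher in T4 than in T25. Over the 14 with values in both T40 and T25, the sum was at 0.266 of the T25 level in T40. A few abundant unigenes carry such sums, and the median ratio of the fat body unigenes was 9.56 in T4 and 0.662 in T40. In T40, the sum of the muscle unigenes was at 0.159 of its T25 level, that of haemocytes at 0.279, of integument at 0.107 and of silk gland at 0.00763, while that of the midgut unigenes was 2.64-fold higher. The medians over the unigenes of these lists were 0.258, 0.245, 0.189, 0.254 and 1.92. Of the fat body unigenes 12 of 15 were higher and 1 lower in T4, beside 36.0 and 29.6% of all unigenes. In T40, 42.2% of all unigenes were higher and 47.5% lower than in T25. There 4 of 14 fat body unigenes were higher and 6 lower, and 28 of 56 midgut unigenes were higher and 15 lower. For muscle these numbers were 8 of 28 and 17, for haemocytes 1 of 8 and 7. For integument they were 3 of 12 and 8, and for silk gland 0 of 3 and 3. In RNA from whole larvae, fewer cells of a type and less RNA per cell cannot be told apart, and the part of these shifts in the results below was not tested.

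In insects as in other animals, the cognates are made at ordinary temperatures and serve newly made proteins in the cytosol, the endoplasmic reticulum and the mitochondria, each compartment having its own. The inducible members, named Hsp70 and Hsp68 in Drosophila, are known for low levels in unstressed tissue and for strong transcription after heat shock, which is driven by the heat shock factor. J-domain proteins (DnaJ or Hsp40) bring clients to Hsp70 and trigger ATP hydrolysis, and nucleotide exchange factors such as GrpE and BAG proteins open the chaperone again.

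The member with the largest fold between libraries was the Hsp68-like unigene c180345_g2_i1, for which the study also designed a pair of PCR primers. The study measured it by RT-qPCR with them and reported it as lower in T40 than in T4. The primers are shown because they tie this member to its transcript sequence and define the stretch by which it can be measured apart from the counts. They are written 5′ to 3′ in lower case, with no part marked.
Forward primer of c180345_g2_i1: cgaggagtgcctaagattgatg
Reverse primer of c180345_g2_i1: cgacccttgtcgttcttgatta
Each primer is 22 bases long, and G and C make up 50% of the forward and 45.5% of the reverse primer.

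**Figure D1:**
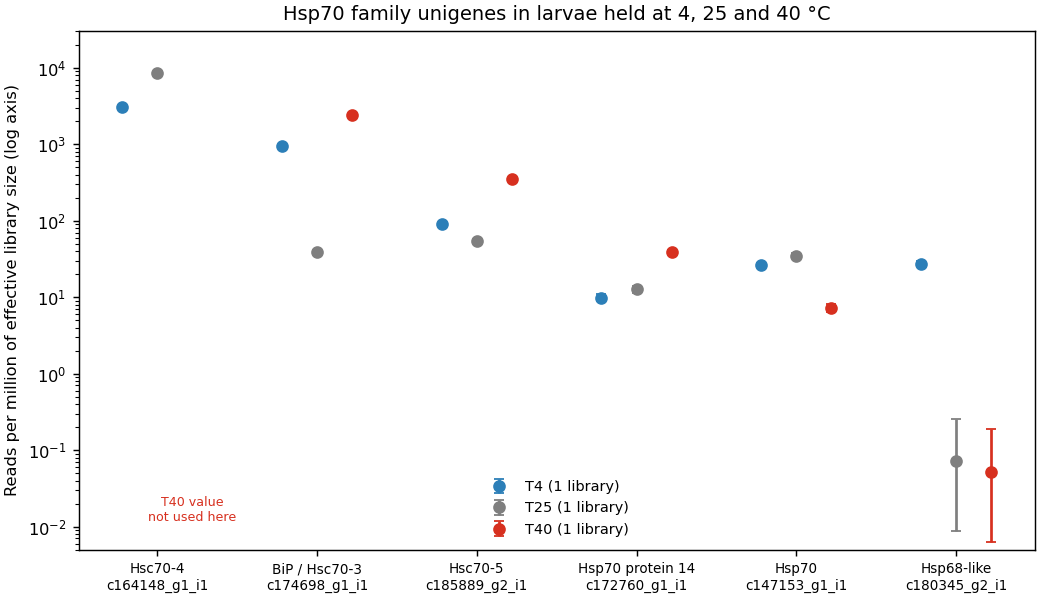
Level of each of the 6 Hsp70 family unigenes in the libraries T4, T25 and T40, as reads per 1000000 of the effective library size on a log axis, with 1 library per temperature. Points are the measured values and bars their 95% exact counting intervals. The BiP unigene lies at 39.3 in T25 against 952 in T4 and 2435 in T40, and the Hsp68-like unigene is near 0 except in T4.

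The cytosolic cognate was the most abundant member in both libraries for which it was analysed. Unigene c164148_g1_i1 has an Hsc70 of the moth Sesamia inferens as its NR hit, and its UniProt and KEGG names are cognate 4, the main Hsc70 of the cytosol in Drosophila. It had 111746 reads in T4 and 237202 in T25, which is 3063 and 8467 reads per 1000000 of the effective library size. The T4 library was the lower one, by 2.76-fold (95% counting interval 2.74 to 2.78). Its T40 value was not analysed here. With 4017 FPKM it ranked 12 among the 25964 unigenes with a T25 value, and with 1368 FPKM it ranked 27 among 25639 in T4.

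Between T4 and T25, the chaperone of the endoplasmic reticulum went the opposite way. Unigene c174698_g1_i1 matched a protein of S. frugiperda itself that is named only Hsc70, but its UniProt name is cognate 3 and its KEGG name is BiP, the Hsp70 of the endoplasmic reticulum lumen, which is known for its induction when unfolded proteins build up there. It had 34734 reads in T4, 1100 in T25 and 94082 in T40. The control library was thus by far the lowest of the 3, and the ratio was 24.2 for T4/T25 (22.8 to 25.8) and 62.0 for T40/T25 (58.4 to 65.9). T40 exceeded T4 by 2.56-fold (2.53 to 2.59). Of all unigenes with values in both libraries, 2.46% had a higher T4/T25 ratio and 1.24% a higher T40/T25 ratio. Its FPKM was 12.3 in T25, 280.1 in T4 and 829.7 in T40, so its rank in FPKM went from 2033 in T25 to 107 in T4 and 62 in T40.

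The mitochondrial member was also highest at 40 °C. Unigene c185889_g2_i1 is named cognate 5, the Hsp70 of the mitochondrial matrix, which draws proteins in through the inner membrane and folds them. It had 3314 reads in T4, 1537 in T25 and 13507 in T40. T40 stood 6.37-fold above T25 (6.04 to 6.72) and 3.85-fold above T4 (3.70 to 4.00). The T4/T25 ratio of 1.66 (1.56 to 1.76) stayed within 2-fold.

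The member named Hsp70 protein 14 had low counts at the lower temperatures and more at 40 °C. This divergent member, c172760_g1_i1, is best known from vertebrates, where it works with DnaJ C2 on the ribosome. It had 361 reads in T4, 355 in T25 and 1520 in T40. The T40/T25 ratio was 3.10 (2.76 to 3.49) and the T40/T4 ratio 3.98 (3.54 to 4.47). T4 was 1.28-fold lower than T25 (1.10 to 1.49), which is within 2-fold.

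The unigene with the name of the inducible Hsp70 was lowest in the heated larvae. Unigene c147153_g1_i1 has Hsp70 of Spodoptera exigua as its NR hit and the major heat shock protein Hsp70Ba of Drosophila simulans as its UniProt hit. It had 964 reads in T4, 982 in T25 and 277 in T40. T4 and T25 lay close together, with T4 1.33-fold lower (1.21 to 1.45). T40 was 4.89-fold below T25 (4.28 to 5.61) and 3.69-fold below T4 (3.22 to 4.23). Of all unigenes, 29.4% had a lower T40/T25 ratio, so this fall was of a common size among the listed unigenes.

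The Hsp68-like unigene c180345_g2_i1, whose Drosophila counterpart is a heat-inducible Hsp70, was abundant only in the cold library. It had 1005 reads in T4, 2 in T25 and 2 in T40. That is 27.5 reads per 1000000 in T4 (25.9 to 29.3), against 0.0714 in T25 (0.00865 to 0.258) and 0.0518 in T40 (0.00627 to 0.187). The T4/T25 ratio was 386, with a counting interval of 107 to 3191 that is wide because T25 had so few reads, and 0.0188% of all unigenes had a higher one. T40 was 532-fold below T4 (147 to 4401). Between T40 and T25, with 2 reads each, no fold can be given.

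**Figure D2:**
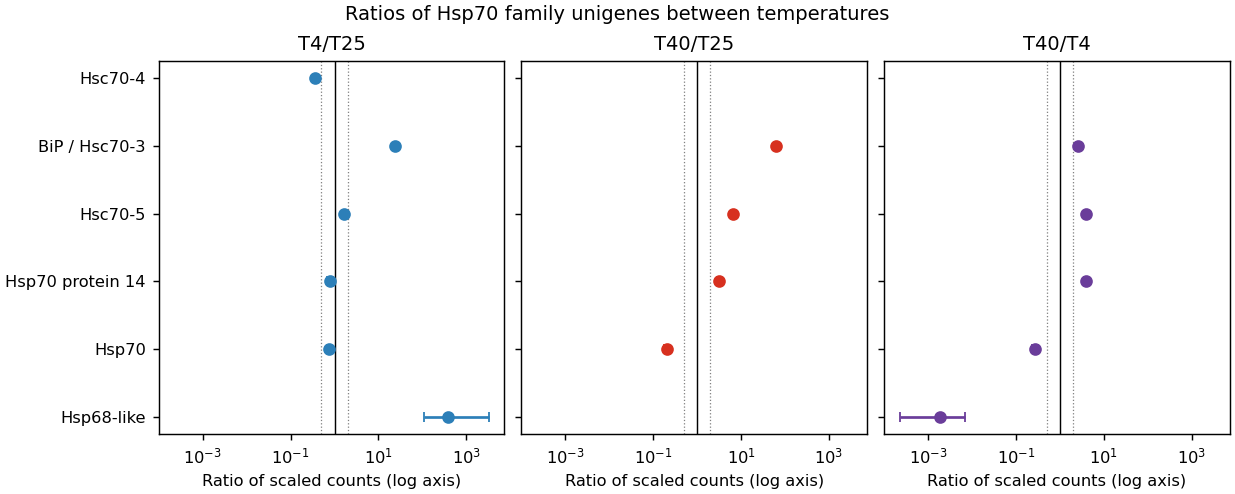
Ratios of scaled counts of the 6 members on a log axis, with 1 panel per pair of temperatures, with 95% exact counting intervals as bars and dotted lines at 2-fold. BiP lies right of the 2-fold line in every panel and Hsp70 left of it in both T40 panels. The cytosolic cognate is drawn in the T4/T25 panel only. The Hsp68-like ratios of 386 for T4/T25 and 0.00188 for T40/T4 have the widest bars, and the Hsp68-like ratio of T40/T25 is left out because it rests on 2 reads each.

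The order of the levels differed between the libraries. In T25 the FPKM fell from 4017 for the cytosolic cognate to 30.3 for Hsp70, 23.3 for the mitochondrial cognate, 12.3 for BiP, 8.53 for protein 14 and 0.04 for the Hsp68-like unigene. In T4 the order was the cytosolic cognate with 1368, BiP with 280.1, the mitochondrial cognate with 36.4, Hsp70 with 21.4, the Hsp68-like unigene with 14.0 and protein 14 with 6.26. BiP thus stood below Hsp70 and the mitochondrial cognate in the control and above both in the cold. Among the 5 members analysed in T40, BiP led with 829.7, before the mitochondrial cognate with 162, protein 14 with 28.8, Hsp70 with 6.73 and the Hsp68-like unigene with 0.03. Without replicates, neighbours in these orders could not be compared with the variation between larvae.

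The distance between the cytosolic and the endoplasmic reticulum chaperone shrank in the cold. The FPKM of the cytosolic cognate was 328 times that of BiP in T25 and 4.88 times that of BiP in T4. Of all reads on members, the cytosolic cognate held 98.4% in T25 (95% exact interval 98.3 to 98.4) and 73.5% in T4 (73.2 to 73.7). BiP held 0.456% in T25 (0.430 to 0.484) and 22.8% in T4 (22.6 to 23.0). Among the 5 members analysed in T40, without the cytosolic cognate, BiP held 86.0% of the reads (85.8 to 86.2) and the mitochondrial cognate 12.3% (12.2 to 12.5). The T40 shares cannot be set beside those of T4 and T25 above, which include the cytosolic cognate. Over the same 5 members, BiP had 34734 of 40378 reads in T4, 1100 of 3976 in T25 and 94082 of 109388 in T40. These shares are of reads and also reflect transcript length, which by the ratio of reads to FPKM differs up to 2.76-fold among the members.

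The balance between BiP and the mitochondrial cognate also turned with temperature. The FPKM of BiP was 0.525 of that of the mitochondrial cognate in T25, 7.70 times it in T4 and 5.12 times it in T40. Hsp70 exceeded BiP in FPKM in the control only, where BiP stood at 0.405 of it. BiP was 13.1 times as high as Hsp70 in T4 and 123 times as high in T40.

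Counted over the members, 2 of 6 were higher and 1 was lower in T4 than in T25, where 36.0% of all 21276 unigenes with both values were higher and 29.6% lower. The higher ones were BiP and the Hsp68-like unigene, and the lower one was the cytosolic cognate. In T40/T25, 3 of 5 members were higher and 1 was lower, against 42.2% higher and 47.5% lower of all 23493 unigenes. In T40/T4, 3 of 5 were higher and 2 lower, against 38.9 and 47.2% of 23168. The numbers of members are too small to set these shares apart from those of all unigenes. The median T4/T25 ratio was 1.22 over the members and 1.10 over all unigenes. For T40/T25 these medians were 3.10 and 0.725, and for T40/T4 they were 2.56 and 0.722. The comparisons share libraries and are not independent of each other.

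**Figure D3:**
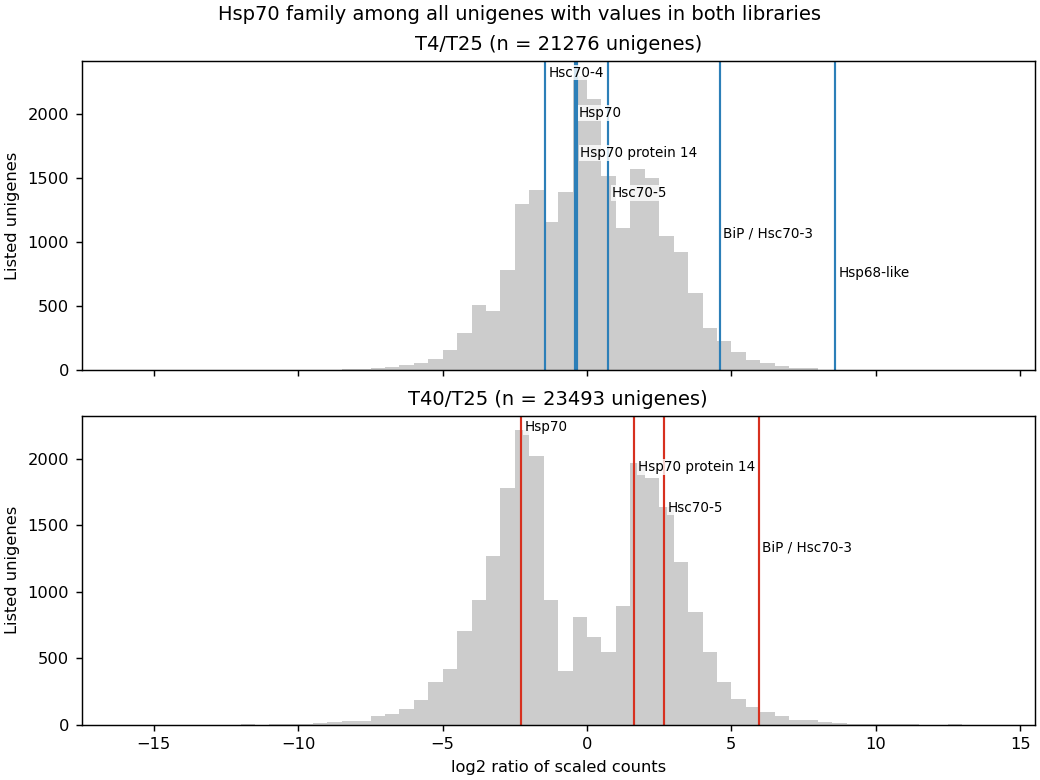
Distribution of the log2 ratio of scaled counts over all listed unigenes with values in both libraries, for T4/T25 (21276 unigenes) and T40/T25 (23493 unigenes), with a vertical line for each member. T40/T25 has no line for the cytosolic cognate, not analysed in T40, nor for the Hsp68-like unigene, with 2 reads in each library. BiP and the Hsp68-like unigene lie in the right tail of T4/T25, BiP in that of T40/T25, and the other lines lie within the bulk.

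Scaling by the median of ratios over unigenes with reads in all libraries, in place of the authors' sizes, multiplied every T40/T25 ratio by 1.64 and every T40/T4 ratio by 1.82, a shift of 0.71 and 0.87 on the log2 scale. On that scale BiP stood 102-fold higher in T40 than in T25, and Hsp70 was still lower in T40 than in T4, at a ratio of 0.494. All members that had passed 2-fold still passed it in the same direction.

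The partners of Hsp70 were then read from a list of names: J-domain proteins, GrpE, BAG proteins, Hsp70-binding and Hsc70-interacting proteins, the ubiquitin ligase CHIP, hypoxia up-regulated protein 1 and the heat shock factor. It took 23 unigenes. Against the control, 8 of 18 were higher and 6 lower in T4, with a median ratio of 1.27, beside 36.0 and 29.6% and a median of 1.10 over all unigenes. For T40 the numbers were 12 higher and 7 lower of 20, with a median of 2.60, beside 42.2 and 47.5% and 0.725. Between the extremes, 11 of 17 were higher in T40 than in T4 and 2 were lower, with a median of 2.50, beside 38.9 and 47.2% and 0.722. These numbers include c166625_g1_i3, which shares its NR hit with another unigene and had 6 reads in T4 and 1 in T25. With 1 unigene per NR hit, 7 of 17 were higher and 6 lower in T4/T25, with a median of 1.18. In T40/T25, 11 of 19 were then higher and 7 lower, with a median of 2.56. With median-of-ratios scaling, the partners lower in T40/T25 went from 7 to 4 and those lower in T40/T4 from 2 to 0. Both alternatives were tried after the data had been seen. After these values were seen, the list was divided by compartment, so the division is a description only.

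The 5 unigenes placed in the endoplasmic reticulum carry 4 protein names. The authors had listed all 5 for T40/T25, so a difference there, though not its direction, was partly fixed by the listing. Taking the unigene with most reads for each name, 4 of 4 passed 2-fold above the control in both T4 and T40, as BiP did, beside 36.0 and 42.2% of all unigenes, and their median ratios were 4.93 and 16.0. Hypoxia up-regulated protein 1, c50639_g1_i1, the nucleotide exchange factor of BiP, had 4842 reads in T4, 820 in T25 and 25558 in T40. Its ratio was 4.53 in T4/T25 (4.21 to 4.89) and 22.6 in T40/T25 (21.1 to 24.3), and as for BiP the order was T40, T4, T25. The J-domain protein shv, c164307_g1_i1, placed in the endoplasmic reticulum from its mammalian counterpart, had 3067, 268 and 12707 reads in T4, T25 and T40. It was 8.79-fold higher in T4 (7.75 to 9.99) and 34.4-fold higher in T40 (30.5 to 38.9) than in T25.

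Another unigene with the shv name, c166625_g1_i3, had 6 reads in T4, 1 in T25 and 49 in T40, and its T4/T25 interval of 0.559 to 212 includes 1, so that it counts for no difference in T4. DnaJ C3, c182482_g1_i1, which in mammals helps BiP in the lumen, had 4710, 679 and 6771 reads, a ratio of 5.33 in T4/T25 (4.91 to 5.78) and of 7.23 in T40/T25 (6.68 to 7.83). Between T40 and T4 it stayed within 2-fold, at 1.36, but passed it with median-of-ratios scaling, at 2.47. DnaJ C1, c172208_g1_i1, a J-domain protein of the reticulum membrane, had 370, 130 and 1680 reads and ratios of 2.19 (1.78 to 2.69) and 9.37 (7.83 to 11.3). The first became 1.96 with median-of-ratios scaling, within 2-fold.

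The mitochondrial GrpE homolog c174289_g1_i1, the exchange factor of the mitochondrial Hsp70, had 278 reads in T4, 15 in T25 and 1505 in T40. It was 14.2-fold higher in T4 (8.48 to 25.8) and 72.7-fold higher in T40 (44.0 to 130.3) than in T25. Its T40/T25 ratio was larger than that of the mitochondrial cognate, 6.37, by more than counting error. It rests on 15 reads in T25, and with 1 library per temperature the difference could not be compared with the variation between larvae. DnaJ C11, c174300_g1_i3, which belongs to the mitochondrial membranes, was 3.59-fold higher in T40 (3.22 to 4.01) and at 1.37 times its T25 level in T4.

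The 16 partners placed in the cytosol or nucleus, or not placed with certainty, were mixed. In T4/T25, 2 of 11 were higher and 6 lower, with a median of 0.421, beside 36.0 and 29.6% of all unigenes. Of those 6, 3 carry the name of the heat shock factor. In T40/T25 5 of 13 were higher and 7 lower, with a median of 0.389, beside 42.2 and 47.5%, and with median-of-ratios scaling 5 were higher and 4 lower. DnaJ C2, c167721_g1_i1, the ribosomal partner of protein 14 in vertebrates, had 569 reads in T4, 371 in T25 and 2485 in T40. Like protein 14 it stayed within 2-fold in T4/T25, at 1.18, and was higher in T40/T25, at 4.86 (4.35 to 5.43). The Hsc70-interacting protein c176604_g1_i2, a cofactor that holds Hsc70 in its client-bound state, had 3092, 662 and 2747 reads and was higher at both extremes, 3.59-fold in T4 (3.30 to 3.91) and 3.01-fold in T40 (2.76 to 3.28).

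Also higher in T40 than in T25 were DnaJ C13, c189559_g1_i2, at 2.56 (2.36 to 2.79), and DnaJ C21, c181000_g1_i1, at 2.53 (2.10 to 3.06). A unigene matching a DnaJ of S. frugiperda itself, c185325_g1_i2, was higher as well, at 2.64 (2.46 to 2.84). Other partners of this group were lower in T40. The BAG protein Samui, c181424_g2_i1, known from the silkworm, had 5333 reads in T4, 5661 in T25 and 1850 in T40, which is 4.22-fold lower in T40 than in T25 (4.00 to 4.45). CHIP, c180454_g2_i1, which tags clients of Hsp70 for degradation, had 2770 reads in T25 and 1409 in T40 and was 2.71-fold lower in T40 (2.54 to 2.89). With median-of-ratios scaling it was 1.66-fold lower and no longer past 2-fold. The J domain-containing protein c175989_g1_i1 was lower than the control in both T4, by 2.38-fold (2.10 to 2.69), and T40, by 6.22-fold (5.24 to 7.42).

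The heat shock factor, the transcription factor that switches on heat shock genes, was represented by 3 unigenes, and each was lower in T4 than in T25. The most abundant, c188463_g1_i3, had 3436 reads in T4 and 7063 in T25, a 2.68-fold lower level in T4 (2.57 to 2.79), and its T40 value was not analysed here. Unigene c175344_g3_i1 had 342 reads in T4, 1375 in T25 and 737 in T40, which is 5.24-fold lower in T4 (4.65 to 5.91) and 2.57-fold lower in T40 (2.35 to 2.82). The latter became 1.57-fold with median-of-ratios scaling, within 2-fold. Unigene c175344_g2_i1 had 45, 138 and 45 reads and was 3.99-fold lower in T4 and 4.23-fold lower in T40. These unigenes share one factor's name and may be fragments or isoforms of one gene, among which reads can be split.

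**Figure D4:**
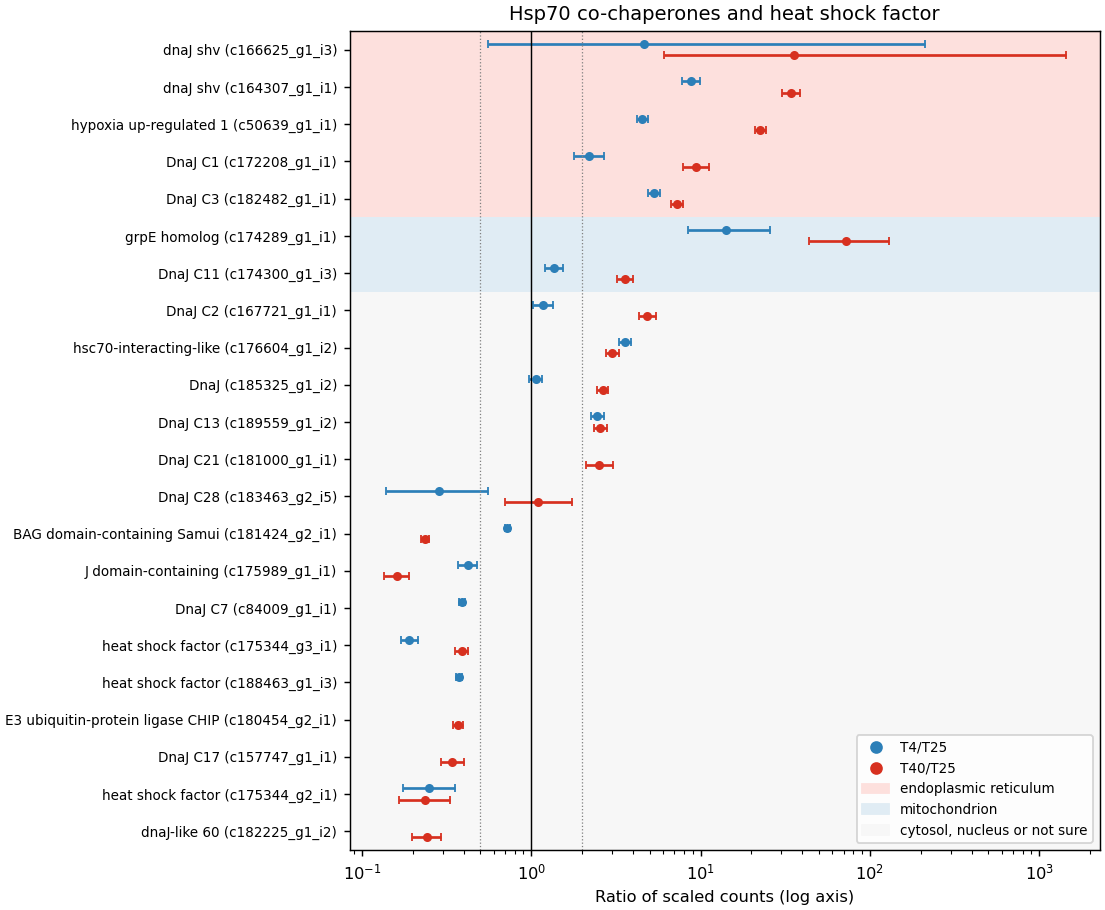
Ratios of scaled counts to T25 of the Hsp70 partners and heat shock factor unigenes with a T25 value, in T4 and T40, on a log axis with 95% exact counting intervals as bars and dotted lines at 2-fold. With the authors' sizes, as drawn, the 5 unigenes of the endoplasmic reticulum and the GrpE homolog lie to the right of 2-fold at both temperatures. The heat shock factor unigenes lie to the left of it wherever they are drawn, c188463_g1_i3 for T4 only. The T4 bar of 1 shv unigene spans 1, and with median-of-ratios scaling DnaJ C1 in T4 and heat shock factor c175344_g3_i1 in T40 lie within 2-fold.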

How the data were processed

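RNA of whole larvae was sequenced as 1 library per temperature, from 5 pooled larvae each. Per the labels, reads were trimmed with Trimmomatic 0.38, checked with FastQC 0.11.7 and aligned with Bowtie 1.1.2. The authors assembled the merged reads de novo. The deposited read counts are estimated counts per unigene that the authors obtained with RSEM, rounded to whole numbers. The deposited FPKM values relate these counts to transcript length and depth. A further deposited column is on the log2 scale: the authors took reads per 1000000 of an effective library size, added 1 and took log2. Each deposited table holds 2 libraries and only unigenes the authors called. It also holds their fold changes, P-values, mean levels and log CPM, which were not used. In each table with T40, 1 line was emptied for this work.

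The effective library sizes, recovered from the normalized values, are 36483914 (T4), 28015943 (T25) and 38643842 (T40) reads. Where several tables list a unigene its counts agree, and the tables were joined by unigene. Ratios have no pseudocount, and their 95% intervals (exact, Clopper-Pearson) were computed given the sum of both counts. Reads are not independent molecules, so intervals cover counting error only. Every member with at least 100 reads in 1 or more libraries was named, and this took all 6. The members, the list of partners and the tissue lists were chosen with earlier results of these data known. RefSeq protein and promoter sequences were not used here, and none of the members' hits (0) is in the RefSeq gene table. Alternatives were FPKM ratios, TMM, median-of-ratios and trimmed-read scaling, pseudocounts of 1 and 10, a fold limit of 4, minimums of 10 and 100 reads, 1 unigene per NR hit and a wider name rule. For the partners, the scalings and 1 unigene per NR hit were added after the data had been seen. TMM factors came from edgeR 4.0.16 in R 4.3.3. The rest was done in Python 3.11.15 with pandas 2.3.3, scipy 1.17.1 and numpy 2.4.6, and plots with matplotlib 3.10.9.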

Additional observations from a re-analysis of the deposited data

How the results depend on the processing

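Of 96 member ratios recomputed under other scalings and pseudocounts, 95 kept their direction and 96 their side of 2-fold. The exception was the T40/T25 ratio of the Hsp68-like unigene, at 2 reads each, which was 0.725 and became 1.19 with median-of-ratios scaling. The members' median T4/T25 ratio of 1.22 became 1.09 with median-of-ratios scaling and 1.12 with trimmed reads. Their median T40/T4 ratio of 2.56 became 2.96 as FPKM, 2.99 with TMM, 4.66 with median-of-ratios scaling and 3.11 with trimmed reads. At a fold limit of 4, the members higher in T40/T25 went from 3 to 2, those lower in T4/T25 went from 1 to 0, those higher in T40/T4 from 3 to 0 and those lower in T40/T4 from 2 to 1, since fewer ratios pass a larger limit. Read minimums and 1 unigene per NR hit left the counts of members in each direction as they were. The wider name rule added 1 higher unigene in each comparison. With a pseudocount of 10 scaled reads, the Hsp68-like T4/T25 ratio of 386 became 73.0 and its T40/T4 ratio of 0.00188 became 0.0114. Among partners, with alternatives chosen after seeing the data, TMM and trimmed-read scaling changed no call. Median-of-ratios scaling ended those of DnaJ C1 (T4/T25, 1.96), DnaJ C17 (T40/T25, 0.559), CHIP (T40/T25, 0.604), heat shock factor c175344_g3_i1 (T40/T25, 0.636), the J domain-containing protein (T40/T4, 0.696) and Samui (T40/T4, 0.597), and brought that of DnaJ C3 (T40/T4, 2.47). By the NR names, BiP counts among the cytosolic cognates, whose summed T4/T25 ratio was then 0.472. With classes by UniProt names, an alternative chosen after seeing the data, it was 0.362. No paired analysis was possible because each temperature has 1 library, and for the same reason no library could be left out. The variation between larvae is unknown, and the unigenes the authors did not list were not analysed here.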

Other observations

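The wider rule on names brought in 1 further unigene, c176632_g7_i1, which has no NR name of the family but a nucleotide hit to the Hsc70 gene of Sesamia inferens. It had 177 reads in T4, 44 in T25 and 719 in T40, and 6.28, 2.17 and 27.8 FPKM. It was 3.09-fold higher in T4 than in T25 (95% exact counting interval 2.21 to 4.40), 11.8-fold higher in T40 than in T25 (8.73 to 16.5) and 3.84-fold higher in T40 than in T4 (3.25 to 4.55). The control library was thus the lowest of the 3, as it was for BiP, and not the highest of those analysed, as it was for the cytosolic cognate. Apart from the NR, nucleotide and UniProt names that the wider rule searched, its names in other databases were not used here. Whether it belongs to a member's transcript was not tested.

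A further pair of values concerns the hsp70-binding protein 1 unigene c184829_g1_i7, set aside by the rule on names, whose vertebrate counterpart is an exchange factor of cytosolic Hsp70. It had 286 reads in T4 and 758 in T40, which is 2.50-fold higher in T40 (2.18 to 2.88), and its T25 value was not analysed here. DnaJ C7, c84009_g1_i1, a cytosolic partner of Hsp70 and Hsp90, had 4215 reads in T4 and 8274 in T25 and was 2.56-fold lower in T4 (2.46 to 2.65), near the 2.76-fold of the cytosolic cognate.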
